A study of Mus musculus with 13 samples.

Results

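The 10 genes described here were Atf4, which encodes a stress-induced transcription factor, its stress targets Ddit3, Trib3, Sesn2 and Chac1, the asparagine synthetase gene Asns, the serine synthesis genes Phgdh and Psat1, and the mitochondrial folate genes Shmt2 and Mthfd2. They were chosen by name, each as the transcript row with the highest total count for its symbol, out of 24445 genes in the count table. All 10 passed the filter on low counts that left 11904 genes for testing. Bone marrow-derived macrophages (BMDMs), grown from marrow of female C57Bl/6J mice in medium conditioned by L929 cells, were treated with 100 ng/mL lipopolysaccharide (LPS) for 3 h or 24 h. Control mice (WT in the sample labels) carried the floxed Acly gene without Cre, and AclyM-KO mice (KO in the labels) carried the same floxed gene with Lyz2-Cre, which is made from the Lyz2 locus and acts in myeloid cells that have switched that gene on. Acly encodes ATP citrate lyase, the enzyme that makes cytosolic acetyl-CoA from citrate. There were 3 libraries each of control 3 h, AclyM-KO 3 h and AclyM-KO 24 h and 4 of control 24 h. The sources used here do not say whether libraries of a group came from separate mice, so that the p-values measure the spread between libraries, which may be technical. The age of the mice was not given either.

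ATF4 is a transcription factor whose messenger RNA is translated more when the initiation factor eIF2 is phosphorylated, as happens on amino acid shortage, endoplasmic reticulum stress or mitochondrial stress. It then raises genes of amino acid import, asparagine and serine synthesis, and the mitochondrial folate cycle that turns serine into one-carbon units for nucleotides. In macrophages, serine and one-carbon metabolism is known to accompany the response to LPS, the outer membrane component of Gram-negative bacteria that Toll-like receptor 4 senses.

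Total counts ran from 21274102 to 59577343 in 12 libraries, and control 24 h replicate 1 held 34467, of which the 10 genes took 11. That library was left out of the main fit and its values, so that each group has 3. It returns below only in an alternative fit and in a check of outlying libraries. Acly was lower in every AclyM-KO library, at 37.7 to 46.2 counts per 1000000 (CPM) against 105 to 107 in control at 3 h, and at 29.1 to 30.5 against 108 to 113 at 24 h. All 8 macrophage markers were present. The 7 markers other than Lyz2 summed to 4643 to 4908 CPM in AclyM-KO and 4716 to 4860 in control at 3 h, and to 3579 to 3767 and 3635 to 3812 at 24 h. Lyz2, the locus that carries Cre, was at 2273 to 2944 CPM in AclyM-KO and 5221 to 5268 in control at 3 h, and at 860 to 958 and 2359 to 2521 at 24 h. Markers of neutrophils summed to 11.9 to 15.3 CPM at 3 h and 3.44 to 4.70 at 24 h, with Ly6g at 0, those of dendritic cells to at most 2.69, and those of T cells, B cells, NK cells, mast cells, fibroblasts and erythroid cells to at most 1.20.

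In 3 of the 10 genes the promoter window held the core of the C/EBP-ATF response element, the composite site at which ATF4 is known to bind with C/EBP partners. The RefSeq windows (assembly GRCm38.p6) cover 250 bases before and 50 after each annotated start, and were found for all 10 genes. The core was searched on both strands as TGATGNAA, and 3.97% of all 32851 windows held it. The cyclic AMP response element TGACGTCA was in the window of 0 of the 10 genes and in 1.79% of all windows. The stretches of the genes with a match are shown 5′ to 3′ on the gene's own strand with the matched letters in capitals, each from the start of its window to the first annotated start or, where it lies further, to the end of the match.
Asns, chr6:7693225-7693459, minus strand: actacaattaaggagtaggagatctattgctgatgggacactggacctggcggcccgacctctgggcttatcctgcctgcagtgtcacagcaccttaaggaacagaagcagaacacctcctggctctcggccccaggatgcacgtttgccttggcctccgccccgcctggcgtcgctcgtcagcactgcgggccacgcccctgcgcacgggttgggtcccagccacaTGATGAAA
Trib3, chr2:152344039-152344310, minus strand: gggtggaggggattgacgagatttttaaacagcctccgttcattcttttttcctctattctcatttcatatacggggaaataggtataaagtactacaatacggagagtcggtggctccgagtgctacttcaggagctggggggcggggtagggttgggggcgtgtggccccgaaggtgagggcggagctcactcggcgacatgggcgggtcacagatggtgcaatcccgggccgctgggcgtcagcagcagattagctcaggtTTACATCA
Chac1, chr2:119350992-119351228, plus strand: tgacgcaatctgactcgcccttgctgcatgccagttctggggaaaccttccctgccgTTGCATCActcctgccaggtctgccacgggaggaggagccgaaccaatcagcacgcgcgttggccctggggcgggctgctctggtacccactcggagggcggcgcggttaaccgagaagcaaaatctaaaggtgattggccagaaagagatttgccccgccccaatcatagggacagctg
The match in Asns (TGATGAAA) began 23 bases before the RefSeq start and at base 23 of the GENCODE transcript. The match in Trib3 (TTACATCA) lay in the reverse orientation, at base 15 of the RefSeq and 14 bases before the GENCODE start. The match in Chac1 (TTGCATCA) was also reversed, 193 bases before the RefSeq start. A match is a description of these letters, and its absence from a window says nothing of sites elsewhere.

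At 3 h of LPS, genes of this set were higher in AclyM-KO than in control macrophages. Trib3, Phgdh, Sesn2 and Asns rose, by 1.93-fold to 3.65-fold, and the stress targets and the synthesis enzymes were both among them. A gene was called when its adjusted p-value (edgeR's quasi-likelihood test, Benjamini-Hochberg over all transcript rows tested) was under 0.05 and its log2 fold change beyond 0.75. By that rule 4 of the 10 genes rose, where 1.41% of all genes tested did, and 0 fell, where 0.596% did. By the adjusted p-value alone, 7 of the 10 were higher and 0 lower, where 8.50% and 6.91% of all genes were. The log2 fold changes ran from 0.12 to 1.87 with a median of 0.84, against a median of -0.005 over all genes. The 3 AclyM-KO libraries all lay above the 3 controls for Atf4, Trib3, Sesn2, Asns and Mthfd2, so for 5 of 10, where this held for 15.3% of all genes. As these are bulk libraries, more cells that express a gene and more RNA per cell cannot be told apart.

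**Figure D1:**
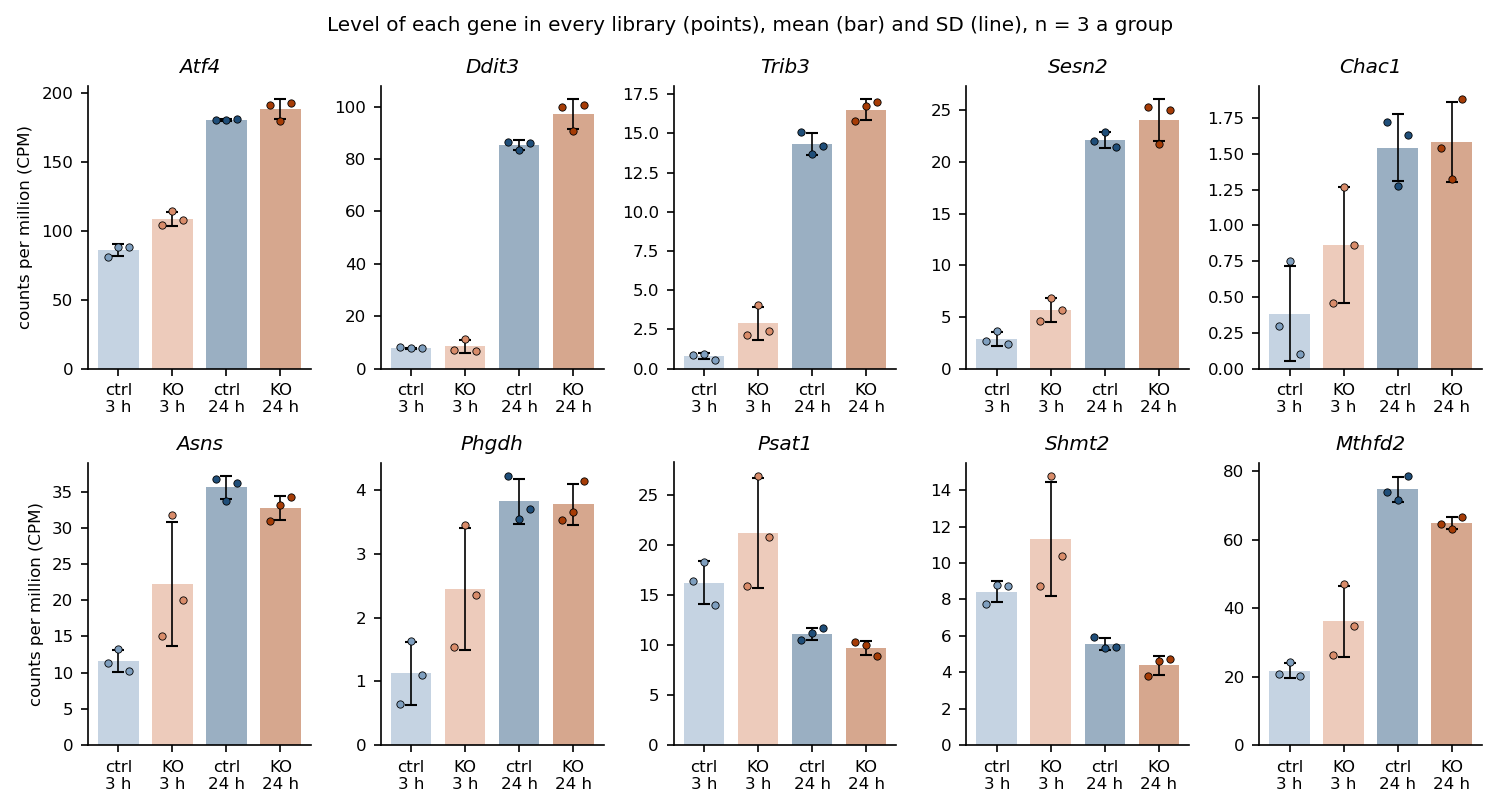
Level of each of the 10 genes in CPM (vertical axes, from 0) in the 4 groups, with 1 point for each library, bars for the mean and lines for the SD (n = 3). Atf4, Ddit3, Trib3 and Sesn2 stand highest at 24 h in both genotypes, while Psat1 and Shmt2 stand lowest there.

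Atf4 was at 81.1, 88.6 and 88.6 CPM in the control libraries and at 104, 114 and 108 CPM in AclyM-KO. The groups did not overlap, and the difference was small, with a log2 fold change of 0.34 ± 0.05 (SE, adjusted p = 4.09e-05), which is 1.26-fold and within the fold limit. Ddit3 encodes CHOP, a C/EBP family factor that ATF4 induces and that is linked to cell death under lasting stress. It was at 8.04, 7.67 and 7.73 CPM in control and 7.17, 11.2 and 6.83 in AclyM-KO, so that 1 AclyM-KO library lay above the controls and the other two below them. Its log2 fold change was 0.12 ± 0.15 (adjusted p = 0.649, 95% interval -0.19 to 0.43), and it was -0.16 without AclyM-KO 3 h replicate 2.

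Trib3 encodes a pseudokinase that is induced by ATF4 and CHOP and that acts back on them. It stood at 0.894, 0.936 and 0.549 CPM in control and at 2.15, 4.07 and 2.40 CPM in AclyM-KO macrophages. Every AclyM-KO library was above the highest control, and the log2 fold change of 1.87 ± 0.25 (adjusted p = 4.50e-06) was the largest of the set. The counts behind it were low, 18, 20 and 11 against 42, 93 and 50. Sesn2 encodes sestrin 2, a leucine sensor that restrains the growth kinase mTORC1. Its levels were 2.63, 3.60 and 2.34 CPM in control and 4.56, 6.82 and 5.62 CPM in AclyM-KO, again without overlap, with a log2 fold change of 0.99 ± 0.16 (adjusted p = 6.49e-05). Both genes were called with each of the 12 libraries left out in turn and under the 7 other settings.

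Chac1 encodes an enzyme that degrades glutathione and is among the most inducible ATF4 targets. It was near the limit of detection at 3 h, with 6, 16 and 2 counts in control and 9, 29 and 18 in AclyM-KO (0.298, 0.749 and 0.0997 CPM against 0.461, 1.27 and 0.865). The groups overlapped, and its log2 fold change of 1.17 ± 0.45 did not pass (adjusted p = 0.0835).

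Asns makes asparagine from aspartate and glutamine. It was at 11.4, 13.2 and 10.3 CPM in control and at 15.1, 31.7 and 20 CPM in AclyM-KO. All AclyM-KO libraries lay above the controls but were spread over a wide range, and the log2 fold change was 0.95 ± 0.25 (adjusted p = 0.0355). This call was the least stable of the 4, as it was kept in 1 of the 12 fits that left out a library, with adjusted p-values of up to 0.118, although the log2 fold change stayed between 0.60 and 1.16.

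Of the serine synthesis pathway, which starts from the glycolytic intermediate 3-phosphoglycerate, Phgdh encodes the first enzyme and Psat1 the second. Phgdh was at 0.645, 1.64 and 1.10 CPM in control and 1.54, 3.46 and 2.36 CPM in AclyM-KO. The lowest AclyM-KO library lay below the highest control, and the log2 fold change was 1.13 ± 0.28 (adjusted p = 0.0074). The call was lost without control 3 h replicate 1 or AclyM-KO 3 h replicate 2. Psat1 was at 16.4, 18.3 and 14.1 CPM in control and 15.9, 26.9 and 20.8 CPM in AclyM-KO, and its log2 fold change of 0.39 ± 0.15 did not pass (adjusted p = 0.118).

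Shmt2 and Mthfd2 encode consecutive mitochondrial enzymes that take the one-carbon unit of serine and oxidize it on folate. Shmt2 was at 7.75, 8.80 and 8.73 CPM in control and at 8.76, 14.8 and 10.4 CPM in AclyM-KO, with groups that overlapped narrowly. Mthfd2 was at 20.9, 24.2 and 20.1 CPM in control and at 26.3, 47.1 and 34.9 CPM in AclyM-KO, all above the controls. Their log2 fold changes were 0.43 ± 0.14 (adjusted p = 0.0398) and 0.74 ± 0.18 (adjusted p = 0.0273), both within the fold limit, Mthfd2 only just.

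**Figure D2:**
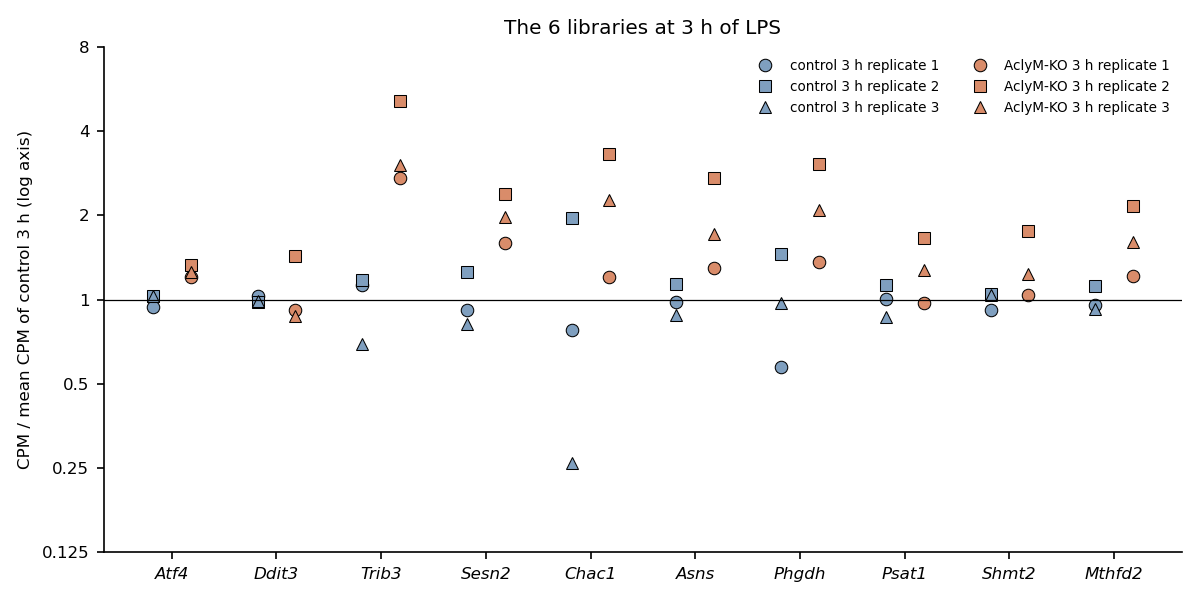
CPM of the 10 genes in the 6 libraries at 3 h of LPS, divided by the mean of the 3 control libraries (vertical log axis), with colour for genotype and shape for the replicate number. AclyM-KO 3 h replicate 2 (square) is the highest point for each of the 10 genes, and the control square is the highest control for 9.

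The AclyM-KO libraries at 3 h differed among themselves in step. AclyM-KO 3 h replicate 2 was the highest of its group for 10 of the 10 genes, where it was highest for 38.2% of all genes, and replicate 1 was the lowest for 9. In control at 3 h, replicate 2 was the highest for 9 of 10, where it was highest for 32.8% of all genes. Acly in AclyM-KO 3 h replicate 2 was at 46.2 CPM, against 37.7 and 41.5 in the other two, and its total count was 24638561, the highest of the 6 libraries at 3 h. Without AclyM-KO 3 h replicate 2, 2 of the 10 genes were called (Trib3 and Sesn2), 5 passed the adjusted p-value, and the median log2 fold change was 0.55. Without control 3 h replicate 1, the same 2 genes were called and 3 passed the adjusted p-value, with a median of 0.78. The part of these libraries' differences in the result was not tested beyond leaving them out.

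At 24 h of LPS, the same comparison gave no call. By the adjusted p-value and fold, 0 of the 10 genes were higher and 0 lower in AclyM-KO, where 0.899% and 0.479% of all genes were, and the adjusted p-value alone gave 0 in either direction too, where 8.32% and 5.57% of all genes passed. With 10 genes, a count of 0 is near these shares and is by itself no result about the set. In edgeR 1 of the 10 had an unadjusted p-value under 0.05, and DESeq2 also called 0. The log2 fold changes ran from -0.34 to 0.21 with a median of 0.004. The 95% intervals of all 10 lay inside the limit of 0.75 in both directions.

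**Figure D3:**
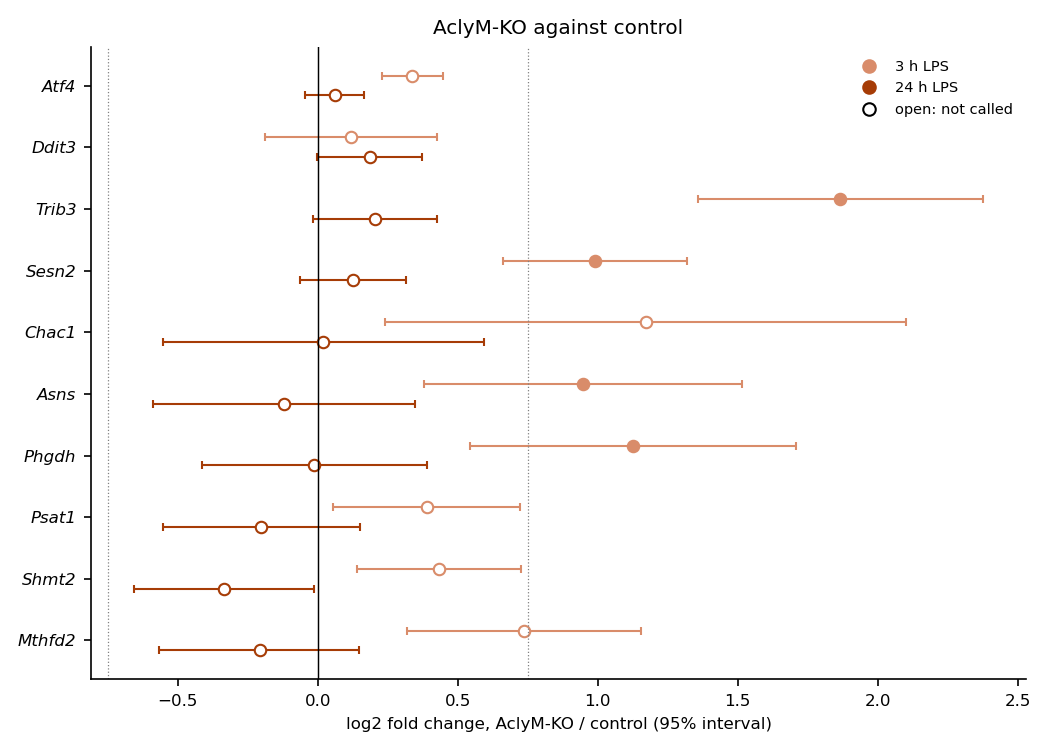
Log2 fold change of AclyM-KO against control (horizontal axis) with its 95% interval for the 10 genes at 3 h (light) and 24 h (dark) of LPS, where filled points were called and dotted lines mark the fold limit. All 10 points at 3 h lie above 0, and those at 24 h lie on both sides of it, from -0.34 to 0.21.

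None of the 5 stress genes passed at 24 h. Atf4 was at 180, 180 and 181 CPM in control and 192, 180 and 193 in AclyM-KO (log2 fold change 0.06 ± 0.05, adjusted p = 0.494). Ddit3 was at 86.4, 83.3 and 86.2 CPM in control and 99.9, 90.5 and 101 CPM in AclyM-KO, without overlap (0.19 ± 0.09, adjusted p = 0.194). Trib3 did not overlap either, at 15.1, 13.7 and 14.2 CPM against 15.8, 16.8 and 17 (0.21 ± 0.11, adjusted p = 0.227). Sesn2, at 22.0, 22.9 and 21.4 CPM in control and 25.3, 21.8 and 25.1 in AclyM-KO, and Chac1, at 1.72, 1.28 and 1.63 against 1.54, 1.33 and 1.88, overlapped between genotypes. All AclyM-KO libraries were above the controls for 2 of the 10 genes, where this held for 18.2% of all genes.

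None of the 5 enzymes passed at 24 h. Mthfd2 was at 74.0, 71.5 and 78.6 CPM in control and 64.5, 63.2 and 66.7 in AclyM-KO (-0.21 ± 0.16, adjusted p = 0.457). Shmt2 was at 5.94, 5.33 and 5.38 CPM in control and 3.79, 4.62 and 4.72 in AclyM-KO (-0.34 ± 0.16, adjusted p = 0.166), and Psat1 at 10.5, 11.2 and 11.7 against 10.3, 9.97 and 8.94 (-0.20 ± 0.16, adjusted p = 0.478). In these 3 genes all AclyM-KO libraries were below the controls, where this held for 14.9% of all genes. Asns, at 36.7, 33.8 and 36.2 CPM against 31.0, 33.1 and 34.2, and Phgdh, at 4.22, 3.54 and 3.71 against 3.53, 3.66 and 4.14, overlapped between genotypes. Without AclyM-KO 3 h replicate 2 from the fit that all groups share, Ddit3, Shmt2 and Mthfd2 passed the adjusted p-value at 24 h but not the fold.

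The log2 fold change of AclyM-KO against control was lower at 24 h than at 3 h for most of the set. In some genes its sign changed, as in Shmt2 (0.43 to -0.34), Mthfd2 (0.74 to -0.21) and Psat1 (0.39 to -0.20). None of these 24 h values passed the adjusted p-value. The interaction of genotype and time, called at an adjusted p-value under 0.05, was negative for 6 of the 10 genes and positive for 0, where 4.66% and 4.86% of all genes were. It was -1.66 ± 0.28 for Trib3 (adjusted p = 1.57e-04) and -0.86 ± 0.19 for Sesn2 (adjusted p = 0.00267). Both were called with any library left out. It was -0.28 ± 0.07 for Atf4 (adjusted p = 0.0147) and -0.77 ± 0.21 for Shmt2 (adjusted p = 0.0205). Atf4 lost the call without AclyM-KO 24 h replicate 2 and with a replicate block, and Shmt2 without control 3 h replicate 1, control 24 h replicate 2 or AclyM-KO 24 h replicate 1. Phgdh at -1.14 ± 0.34 (adjusted p = 0.0356) and Mthfd2 at -0.95 ± 0.24 (adjusted p = 0.0418) each kept the call in 2 of the 12 fits that left out a library. Asns at -1.07, Chac1 at -1.15, Psat1 at -0.59 and Ddit3 at 0.07 did not pass, with adjusted p-values of 0.0796, 0.189, 0.125 and 0.87. The count fell to 3 without control 3 h replicate 1, without control 24 h replicate 2, and without AclyM-KO 24 h replicate 1 or 2.

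Between the 2 times the 10 genes differed more widely than between the genotypes. In control macrophages 8 of the 10 genes rose from 3 h to 24 h, where 20.9% of all genes did, and 0 fell, where 19.5% did. In AclyM-KO macrophages 6 rose, where 21.9% of all genes did, and 2 fell, where 20% did. The rises in AclyM-KO went from 4 to 8 with 1 library left out. The call of Mthfd2 was lost without AclyM-KO 3 h replicate 1, and that of Chac1 without AclyM-KO 3 h replicate 1 or 3 or AclyM-KO 24 h replicate 3, while Asns and Phgdh were gained without AclyM-KO 3 h replicate 2. The median log2 fold change of the 10 was 1.76 in control and 0.81 in AclyM-KO, against 0.04 over all genes in each. Time under LPS and time in culture cannot be told apart, since no unstimulated library was analysed here. Each library enters a comparison of genotypes and a comparison of times, so that the 2 kinds of value are not independent.

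**Figure D4:**
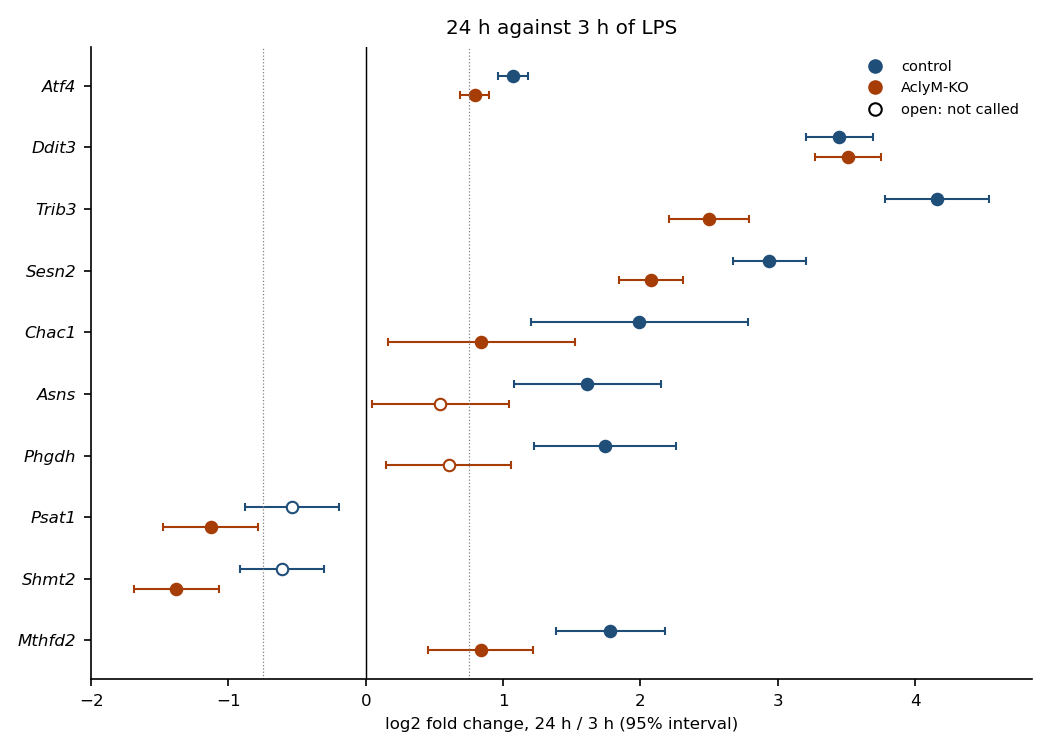
Log2 fold change from 3 h to 24 h of LPS (horizontal axis) with its 95% interval for the 10 genes in control and AclyM-KO macrophages, where filled points were called and dotted lines mark the fold limit. Trib3, Ddit3 and Sesn2 lie farthest to the right, and Psat1 and Shmt2 lie below 0 in both genotypes.

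Trib3, Ddit3 and Sesn2 had the 3 largest folds of the set in both genotypes. Ddit3 went from 7.82 ± 0.20 to 85.3 ± 1.73 CPM in control (SD, n = 3) and from 8.41 ± 2.45 to 97.0 ± 5.66 CPM in AclyM-KO, which is 10.9-fold and 11.4-fold (adjusted p = 7.95e-15 and 5.05e-15). Trib3 rose from 0.793 ± 0.213 to 14.3 ± 0.707 CPM in control, 17.9-fold (adjusted p = 2.93e-18), and from 2.87 ± 1.04 to 16.5 ± 0.656 CPM in AclyM-KO, 5.65-fold (adjusted p = 1.22e-15). The negative interaction given above is the difference of these 2 changes. Sesn2 showed the same order, with rises of 7.66-fold in control and 4.21-fold in AclyM-KO (adjusted p = 2.30e-18 and 5.25e-16). Atf4 messenger RNA rose 2.10-fold in control and 1.73-fold in AclyM-KO (adjusted p = 9.75e-18 and 1.41e-14), and Chac1 3.98-fold and 1.79-fold (adjusted p = 4.30e-05 and 0.0241).

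Among the enzymes, the set split. Mthfd2 rose 3.44-fold in control and 1.78-fold in AclyM-KO (adjusted p = 8.48e-06 and 0.00131). Asns and Phgdh rose in control, 3.06-fold and 3.35-fold (adjusted p = 1.86e-04 and 8.20e-07). In AclyM-KO their log2 fold changes were 0.54 (adjusted p = 0.0478) and 0.60 (adjusted p = 0.0162), within the fold limit. Shmt2 and Psat1 went the other way. Shmt2 fell from 11.3 ± 3.12 to 4.38 ± 0.511 CPM in AclyM-KO, a log2 fold change of -1.38 (adjusted p = 6.79e-09), and Psat1 from 21.2 ± 5.54 to 9.75 ± 0.718 CPM, a log2 fold change of -1.13 (adjusted p = 1.79e-05). In control their log2 fold changes were -0.61 (adjusted p = 6.16e-04) and -0.54 (adjusted p = 0.00696), within the fold limit.

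Per kilobase of transcript, Atf4 was the most abundant of the 10 in all 4 groups, at 49.9 ± 2.5 CPM per kilobase in control and 63.1 ± 3.02 in AclyM-KO at 3 h, and Chac1 was the least abundant. In control at 3 h, Mthfd2 (10.4 ± 1.05) and Ddit3 (8.78 ± 0.224) followed without overlap, then Psat1 and Asns, which overlapped each other, then Shmt2 at 3.68, and then Sesn2, Phgdh, Trib3 and Chac1, from 0.823 to 0.233, each of which overlapped the next. At 24 h the order was Atf4 (105 ± 0.307), Ddit3 (95.9 ± 1.94), Mthfd2 (35.8 ± 1.73), Asns, Trib3, Sesn2, Psat1, Shmt2, Phgdh and Chac1 in control, with no overlap between neighbours. In AclyM-KO at 24 h, Atf4 (109 ± 4.19) and Ddit3 (109 ± 6.36) overlapped, and so did Phgdh and Shmt2.

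Over the 12 libraries, the genes whose log2 CPM followed that of Atf4 most closely were Nfe2l1 (Pearson's r = 0.9965), Lrp8 (0.995), Hsd3b7 (0.9949), Lrp12 (0.9943) and Sesn2 (0.9939). The libraries share the step between the 2 times, which sets most of these values. Of the other members, Trib3 (0.983), Ddit3 (0.968) and Mthfd2 (0.965) stood only at ranks 91, 368 and 462 among all genes tested. Asns (0.918), Phgdh (0.886) and Chac1 (0.818) stood at ranks 1712, 2340 and 3314. Psat1 (-0.759) and Shmt2 (-0.778) ran opposite to Atf4.

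Of 43 other genes known as targets of ATF4 or of the integrated stress response, 37 were tested. At 3 h, 3 of them rose in AclyM-KO and 0 fell, where 1.41% and 0.596% of all genes did, and by the adjusted p-value alone 19 were higher and 2 lower, where 8.50% and 6.91% were. The median log2 fold change was 0.37. Those that rose were Gdf15, a stress cytokine (5.86, 6.04 and 5.73 CPM in control against 22.0, 14.7 and 23.4 in AclyM-KO, adjusted p = 9.34e-06), Slc1a4, a carrier of alanine, serine and cysteine (0.745, 0.889 and 0.399 against 0.973, 2.14 and 1.68 CPM, adjusted p = 0.0067), and Slc38a2, a carrier of small neutral amino acids (18.9, 21.1 and 21.7 against 33.4, 39.3 and 35.3 CPM, adjusted p = 8.15e-09). Gdf15 was lowest, not highest, in AclyM-KO 3 h replicate 2. Without that library the calls of Slc1a4 and Slc38a2 were lost and 1 of Herpud1 was gained, and 16 genes of the list were higher by the adjusted p-value, with a median of 0.29. Among those that passed the adjusted p-value alone were the transfer RNA synthetase genes Aars, Cars, Gars, Iars, Mars1, Sars and Yars, with log2 fold changes of 0.30 to 0.51, and the transcription factor genes Atf5 (0.51), Cebpg (0.46) and Atf3 (0.26). The synthetase genes Eprs, Lars, Nars, Tars and Wars did not pass, at 0.08 to 0.15. The 2 genes lower by the adjusted p-value were Jdp2 (-0.36) and Nupr1 (-0.305).

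At 24 h, 2 genes of that list rose in AclyM-KO and 0 fell, where 0.899% and 0.479% of all genes did, and the median was 0.08. Passing the adjusted p-value alone, 9 were higher and 1 lower, where 8.32% and 5.57% of all genes were. The 2 that rose were transporter genes. Slc7a11, the cystine importer, was at 54.8, 68.2 and 65.7 CPM in control and 117, 113 and 113 in AclyM-KO (log2 fold change 0.86 ± 0.12, adjusted p = 4.56e-04). Slc6a9, a glycine transporter, was at 1.80, 2.35 and 1.83 against 4.06, 4.54 and 4.34 CPM (1.13 ± 0.18, adjusted p = 4.67e-05). Neither passed the adjusted p-value at 3 h, and Slc6a9 had 0, 1 and 1 counts in control there. The interaction was negative for 8 genes of the list and positive for 3, where 4.66% and 4.86% of all genes were called, with a median of -0.31. Slc7a11 was among the positive ones. From 3 h to 24 h, 18 genes of the list rose in control and 1 fell, where 20.9% and 19.5% of all genes did, against 12 and 1 in AclyM-KO, where 21.9% and 20% did. Gdf15 rose from 5.88 ± 0.152 to 98.6 ± 7.69 CPM in control, Ddit4, an mTORC1 inhibitor, from 0.131 ± 0.0589 to 0.804 ± 0.0234 CPM, and Slc6a9 from 0.0322 ± 0.0279 to 1.99 ± 0.304 CPM, while Jdp2, a repressor of the AP-1 family, fell from 74.6 ± 4.71 to 24.5 ± 0.877 CPM.

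**Figure D5:**
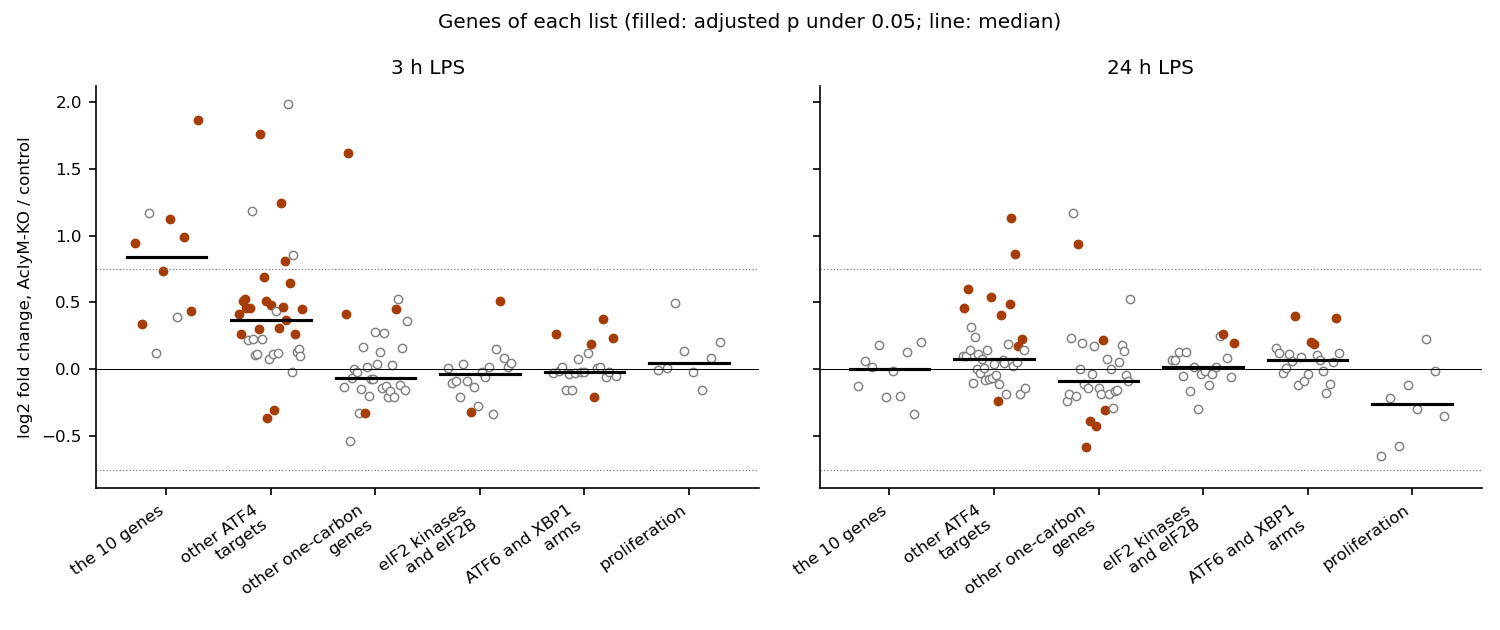
Log2 fold change of AclyM-KO against control (vertical axis) for each gene of the 10 and of the other lists at 3 h and 24 h of LPS, where filled points had an adjusted p under 0.05, horizontal lines are medians and dotted lines mark the fold limit. The medians of the 10 genes and of the other ATF4 targets at 3 h are 0.84 and 0.37, and those of the eIF2 and unfolded protein response lists are -0.04 and -0.02.

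The rest of serine, folate and methionine metabolism gave a count of calls between genotypes at 3 h that was near the background. Of 32 such genes 31 were tested. At 3 h 1 rose in AclyM-KO and 0 fell, where 1.41% and 0.596% of all genes did, and the median was -0.06. These counts are no result about the list. The gene that rose was Aldh1l2, which oxidizes 10-formyl-folate in mitochondria, with 10, 4 and 7 counts in control and 17, 27 and 23 in AclyM-KO (log2 fold change 1.62 ± 0.42, adjusted p = 0.0078), and its call was lost without control 3 h replicate 2 and in DESeq2. Psph, the last step of serine synthesis, had log2 fold changes of 0.04 (adjusted p = 0.943) and -0.16 (adjusted p = 0.629) at 3 h and 24 h, and Mthfd1l, the next mitochondrial step after Mthfd2, of 0.28 (adjusted p = 0.289) and -0.14 (adjusted p = 0.596). Between the times in control 4 of the 31 genes rose and 4 fell, where 20.9% and 19.5% of all genes did. In AclyM-KO 5 rose and 6 fell, where 21.9% and 20% of all genes did. All 4 counts are near or below those shares and are no result about the list. Mtrr (1.88 ± 0.259 to 8.03 ± 0.401 CPM), Shmt1, the cytosolic counterpart of Shmt2 (0.834 ± 0.327 to 2.00 ± 0.381), and Mat2b (14.4 ± 1.08 to 24.9 ± 2.16) rose in control, and Tyms, thymidylate synthase (2.40 ± 0.0249 to 0.501 ± 0.159), Slc19a1, a folate carrier (2.17 ± 0.577 to 1.16 ± 0.542), and Sfxn3 (21.4 ± 1.66 to 11.6 ± 0.332), a mitochondrial carrier related to the serine transporter, fell.

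Upstream of ATF4, the 18 genes of the eIF2 kinases, eIF2, eIF2B and their regulators gave 0 calls at either time, with medians of -0.04 and 0.02. By the adjusted p-value alone 1 was higher and 1 lower at 3 h (Impact at 0.51 and Eif2b2 at -0.32), and 2 were higher at 24 h. In that edgeR fit 3 had an unadjusted p-value under 0.05 at each time, and DESeq2 also gave 0 calls. With 1.41% and 0.596% of all genes called at 3 h and 0.899% and 0.479% at 24 h, a count of 0 in a list of this size is near the background and is no result about it. The 21 genes of the ATF6 and XBP1 arms of the unfolded protein response, the other routes of endoplasmic reticulum stress, gave 0 calls at either time too, in edgeR and in DESeq2, with 6 at an unadjusted p-value under 0.05 at each time and medians of -0.02 and 0.07. That count of calls too is near the background. At 3 h 4 of them were higher and 1 lower by the adjusted p-value alone, where 8.50% and 6.91% of all genes were. At 24 h 4 were higher and 0 lower, where 8.32% and 5.57% of all genes were. Both lists are measured as messenger RNA, which does not report the phosphorylation of eIF2. The 8 proliferation markers gave 0 calls between genotypes, in edgeR and in DESeq2, with 2 at an unadjusted p-value under 0.05 at each time. Their medians were 0.05 at 3 h and -0.26 at 24 h. In a list of 8 a count of 0 is near the background as well and is no result about it. All 8 fell from 3 h to 24 h in both genotypes, where 19.5% of all genes did in control and 20% in AclyM-KO, with medians of -1.88 and -2.02.

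In the genome (GRCm38, which is mm10) the 10 genes lie on 7 chromosomes. Atf4 is at chr15:80255184-80257541, Sesn2 at chr4:132492032-132510501, Psat1 at chr19:15904678-15947337 and Phgdh at chr3:98313170-98339990. Trib3 (chr2:152337422-152344032) and Chac1 (chr2:119351229-119354381) share a chromosome, as do Asns (chr6:7675169-7693254) and Mthfd2 (chr6:83305691-83325908), and Ddit3 (chr10:127290774-127296288) and Shmt2 (chr10:127517123-127522444). Exons of Ddit3 share 68 bases with those of the synthetase gene Mars on the opposite strand, 13 with Gm4189, also opposite, and 105 with a further gene model of Ddit3, and exons of Shmt2 share 16 bases with Ndufa4l2. The strand setting of the counting was not given in the sources used here, so tags of Ddit3 and Mars in the shared stretch cannot be told apart. The other 8 genes shared 0 exonic bases with another gene.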

How the data were processed

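RNA-seq was measured in 13 libraries of BMDMs under LPS. Per the labels and the study's methods, the authors made strand-specific mRNA libraries (KAPA mRNA HyperPrep), aligned reads to mm10 with STAR 2.5.2b and summed tags per RefSeq transcript with HOMER. The deposited table holds raw counts for 35745 transcript rows, and 0 columns were left unused. The strand and isoform settings of the counting were not given in the sources used here.

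Groups came from the sample labels. RefSeq and GENCODE annotations gave symbols to 35628 rows. The other 117 rows took 1.13% of counts and stayed in the library sizes. Atf4 and Ddit3 have 2 rows with identical counts. Counts of 12 libraries were normalized by TMM, filtered with filterByExpr (19621 rows kept) and fitted in 1 robust quasi-likelihood model of 4 groups (R 4.3.3, edgeR 4.0.16, limma 3.58.1). DESeq2 1.42.0, the study's tool, was an alternative, as were RLE scaling, no filter, 1 row per gene, only the groups compared, a replicate block, the 13th library put back and each library left out. Thresholds (adjusted p under 0.05, log2 fold change beyond 0.75) were the study's. SE was the log2 fold change over the root of F. CPM are scaled by TMM, and 1 count was 0.0168 to 0.047 per 1000000 of all counts. No replicate pair agreed within counting noise (chi-square per degree of freedom 2.45 to 11.7).

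Besides the 10 genes and Acly, the text names list genes called between genotypes, up to 3 called genes in each direction between the times in control from the first 2 lists, and the 5 genes most like Atf4. The synthetase genes, Atf3, Atf5, Cebpg, Nupr1, Psph, Mthfd1l, Herpud1, Impact and Eif2b2 were named after their values were seen. The result of 1 list gene is not reported here. The genes, lists and tests were chosen with earlier results of these data known. On data simulated for 11904 genes, the test called 85.1% of genes changed by a log2 of 1 at 3 h and 91.0% at 24 h. Each simulated gene had its mean level over all libraries of the fit and the same spread in every group. The changed genes were drawn above a limit on counts. These shares therefore need not hold for genes as low at 3 h as Trib3 and Chac1. Nor need they hold for genes as spread among the AclyM-KO libraries at 3 h as Asns and Mthfd2.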

Additional observations from a re-analysis of the deposited data

Results flagged for a closer look

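The genotype difference changed between the times for 6 genes, by the interaction test over all rows. As a log2 fold change at 24 h minus 3 h it was -1.662 for Trib3, -1.138 for Phgdh, -0.945 for Mthfd2, -0.864 for Sesn2, -0.77 for Shmt2 and -0.278 for Atf4. Of these, the calls of Phgdh and Mthfd2 were each kept in 2 of the 12 fits that left out a library.

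Among the 4 control libraries at 24 h, replicate 1 stood apart from the others for 8 genes by Dixon's test, which flags about 1 in 20 groups by chance. Per 1000000 counts of its 34467 in all it had 203.1 for Atf4, 58.03 for Psat1 and 29.01 for Mthfd2, and 0 for Ddit3, Asns, Trib3, Phgdh and Shmt2. In that library 1 count stands for 29 per 1000000.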

How the results depend on the processing

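Of 940 values of the 10 genes under an alternative, 867 kept their direction and their side of the threshold, 47 lost a call, 15 gained one and 11 changed sign. All 190 values between the times in control kept both. The number of genes called among all tested stayed within 1.5 times its value in every comparison.

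With each library left out in turn, 2 to 6 of the 10 genes were called at 3 h (4 with all 12) and 3 to 9 passed the adjusted p-value (7 with all 12). At 24 h 0 to 3 passed it, and for the interaction 3 to 9 were called. With only the groups compared in the fit, 4 passed the adjusted p-value at 3 h (the call of Asns was lost) and 2 at 24 h. The cause was not tested. With libraries left out, the log2 fold change ran from -0.155 to 0.252 for Ddit3 at 3 h, from -0.086 to 0.052 for Phgdh and from -0.123 to 0.128 for Chac1 at 24 h, and from -0.068 to 0.329 for the interaction of Ddit3. Without a filter on low counts Chac1 was at -0.01 at 24 h, the call of Asns at 3 h was lost and that of Chac1 gained.

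Replicate numbers showed no strong pairing of the libraries. Deviations of same-numbered libraries correlated at -0.029 to 0.055 over 15 pairs, with 0 over 0.1, against -0.058 to 0.07 for other pairs. Between 3 h and 24 h within AclyM-KO, same-numbered pairs were at 0.055, 0.036 and 0.037, and other pairs at -0.033 to -0.003. Within control, same-numbered pairs were at -0.007 and 0.013, and the 0.07 joined 3 h replicate 1 and 24 h replicate 4. Both of these carry the lowest number of their group in the column headers. The 0.07, counted here with the other pairs, may therefore come from a matched pair. Whether libraries were paired across the times was not tested further. With the replicate block, 4 genes were called at 3 h and 0 at 24 h, as without it, and 3 for the interaction (Trib3, Sesn2 and Shmt2). The block used the replicate number, which control 24 h replicate 4 shared with no other library. That library therefore added nothing to the comparisons in the block fit. Asns at 24 h was then at 0.0 and Phgdh at 0.141. Chac1 had 2 to 29 counts a library at 3 h.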
